A study of Sus scrofa with 9 samples.

Results

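The RNA-seq libraries described here came from the abdominal aorta of Tibetan minipigs, a small pig breed, and the comparison sets 24 weeks of high-fat feeding (H24) against 8 weeks of it (H8). H24 holds 3 libraries of pigs labelled with atherosclerosis, and H8 holds 3 libraries of pigs labelled with hypercholesterolemia. The diet called high-fat here also held added cholesterol, as the study describes it for the pigs with atherosclerosis. Another group, NC, of 3 pigs fed a normal diet for 24 weeks, gave the background level of each gene and entered no test. The members of the comparison are the genes whose FPKM averaged 0.1 or more across the 6 high-fat libraries, which were 14788 of the 21357 genes in the deposited table. FPKM is the number of sequenced fragments per kilobase of exon and per unit of sequencing depth, so it allows for gene length and depth. It lacks the further scaling between libraries that was used in the test. Just inside this limit lay CNTNAP2 with 0.0556, 0.0197 and 0.0265 FPKM in H8 replicates 1 to 3 and 0.0665, 0.432 and 0 in H24, and just outside it lay CCR4 with 0, 0 and 0.0337 in H8 and 0.0200, 0.0597 and 0.486 in H24. All groups are of the same breed and tissue, and the study describes male pigs that were bought young. It gives this for NC and H24, and H8 is known from its labels. No group on normal diet was labelled for 8 weeks, so the age of the pigs and the time on the diet cannot be told apart in H24/H8.

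Atherosclerosis is a disease of the artery wall in which lipoproteins are held in the intima and taken up by macrophages. Macrophages loaded with cholesterol esters are called foam cells, and T cells, B cells, mast cells and dendritic cells join them as the plaque grows. The smooth muscle cells of the media, which carry the contractile proteins and make elastin and collagen, can lose these proteins and take on fibroblast-like, macrophage-like or bone-like programs. Cells that hold much cholesterol switch off the enzymes that make it, through the transcription factor SREBP2, and switch on export pumps such as ABCA1, through the liver X receptor. In a bulk sample of the vessel wall, fewer cells of a type and less RNA per cell cannot be told apart.

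The total counts ranged from 44094263 to 75553522 in the 6 libraries, with H24 replicate 2 the lowest. H24 replicate 3 stood apart from the rest. Its correlation with the other 8 libraries across genes, which are not independent replicates, was 0.837 to 0.912, while the H8 and NC libraries had r of 0.941 to 0.970 among themselves. On the first principal component of the 6 libraries, which held 49.5% of the variance, it scored 145 and the other 5 scored between -75.3 and 21.1. Counts of called genes in each list below are therefore given with it and without it. No pair of libraries agreed within sampling noise. Smooth muscle contractile genes, which define the arterial media, summed to 21000 to 26770 FPKM in H8 and to 16950.0, 23200.0 and 3974 in H24 replicates 1 to 3.

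A gene was called up-regulated or down-regulated when its log2 fold change in H24/H8 was above 1 or below -1 and its unadjusted p was less than 0.05 by edgeR's quasi-likelihood test. Among the 14788 genes, up-regulation was called in 1068 (7.22%) and down-regulation in 451 (3.05%), so that 70.3% of the 1519 called genes were higher in H24. With H24 replicate 3 left out, 547 of 14589 genes (3.75%) were up-regulated and 365 (2.5%) down-regulated, and the higher share was 60.0%. The genes called in both fits were 412 up-regulated and 286 down-regulated. FPKM did not overlap between the groups in 823 of the up-regulated and 359 of the down-regulated genes, where among all tested genes 15.5% did not overlap with H24 higher and 6.31% with H24 lower. After Benjamini-Hochberg adjustment 2 genes, or 0.0135%, were higher in H24 at an adjusted p under 0.05 and 0 were lower, although 2029 genes had an unadjusted p under 0.05. DESeq2 on the same counts called 447 higher and 203 lower after adjustment. Leaving out 1 library at a time gave 0 to 3 higher and 0 to 1 lower genes past the adjusted threshold in edgeR. Below, "up-regulated" and "down-regulated" keep to the unadjusted thresholds, and no gene named other than these 2 passed the adjusted threshold. Among the called genes, 127 had no name. A gene with an H8 mean under 0.1 FPKM could pass the filter only through H24 and had to be higher there. This held for 714 of the tested genes, and for 9 T and NK cell, 5 neutrophil, 4 receptor, 3 B cell, 3 dendritic and mast cell, 3 adipocyte, 3 calcification, 3 chemokine, 2 metalloproteinase, 2 adhesion, 2 cell cycle, 2 oxidant and 2 vascular tone genes of the lists below. The foam cell, complement, interferon, antigen presentation, toll-like receptor, fatty acid, growth factor and red cell lists held 1 such gene each. Likewise, a gene with an H24 mean under 0.1 FPKM could pass only through H8 and had to be lower in H24. This held for 226 of the tested genes, and for 1 gene each of the adipocyte, cholesterol synthesis, complement and elastic fibre lists. For genes of either kind the direction, the fold change and its p carry no support.

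Of the genes with a name, MYBPH, myosin binding protein H (ENSSSCG00000030681, chr9:113873490-113895024 in Sscrofa11.1), had the lowest p-value. It had 0.264, 0.252 and 0.256 FPKM in H8 replicates 1 to 3 and 3.19, 4.17 and 4.72 in H24, against 0.232 to 0.680 in NC. Every H24 library was above every H8 library, and the log2 fold change was 3.78 ± 0.29 (SE, adjusted p = 0.0220, edgeR). Its locus overlaps CHI3L1 on the same strand over 12811 bases, so reads of the 2 genes could have been split between them. CHI3L1, a secreted chitinase-like glycoprotein made by macrophages and smooth muscle cells, was chosen after its values were seen: it had 5.54, 3.48 and 3.61 FPKM in H8 and 28.6, 18.4 and 42.0 in H24 (log2 fold change 2.63 ± 0.36, adjusted p = 0.215, edgeR). The other gene past the adjusted threshold was an unnamed entry of the GNAS complex locus, ENSSSCG00000033041 (chr17:58985580-59055340). It had 1, 0 and 0 counts in H8, 1957, 1063 and 1533 counts in H24, and 0, 6.71 and 1.32 FPKM in NC replicates 1 to 3. It passed the filter on low values through H24. It lies over GNAS, the gene of the stimulatory G protein alpha subunit, which was not called (log2 fold change -0.23 ± 0.29). One NC library was also at 0 for this entry, and whether reads of GNAS were assigned to it in some libraries was not tested.

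S100A4, LTC4S, TMEM119 and GPX3 were higher in each H24 library than in every H8 and NC library. S100A4, a calcium-binding protein of motile cells, had 7.61, 3.40 and 4.13 FPKM in H8 and 73.5, 44.4 and 119.7 in H24, and 2.34 to 5.70 in NC. LTC4S, which makes leukotriene C4, had 3.34, 2.61 and 4.16 in H8 and 21.9, 18.2 and 25.1 in H24, and TMEM119, a membrane protein first described in bone-forming cells, had 7.42, 6.71 and 4.72 in H8 and 33.2, 29.6 and 32.7 in H24. Both were chosen after their values were seen, and in both the H24 libraries lay close together and far above H8 and NC, with log2 fold changes of 2.51 ± 0.31 and 2.15 ± 0.26 (adjusted p = 0.215 for each, edgeR). GPX3, the secreted glutathione peroxidase, had 16.3, 35.4 and 23.9 FPKM in H8 and 293, 160.2 and 276 in H24 (log2 fold change 3.05 ± 0.42). NC had 37.7 to 101, so that H8 lay below NC and H24 above it. CXCL10, a chemokine that draws T cells, had 1.05, 2.33 and 1.16 in H8 and 28.9, 3.69 and 15.2 in H24, and 0.647, 1.51 and 5.13 in NC, so that its H24 values were uneven and replicate 2 lay below NC replicate 3. CA4, a membrane-bound carbonic anhydrase, and MASP1, a protease of the lectin complement pathway, were also up-regulated with and without H24 replicate 3, and their H24 values were uneven too, 1.80, 14.3 and 26.4 FPKM for CA4 and 2.92, 0.259 and 3.24 for MASP1. UPK1B, a tetraspanin, had 0.0891, 0.342 and 0.0923 FPKM in H8 and 3.05, 0.582 and 6.58 in H24. PMF1 was named by the same rule with a log2 fold change of 2.89, but it overlaps SLC25A44, which had a log2 fold change of -2.54, over 26314 bases on the same strand.

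**Figure D1:**
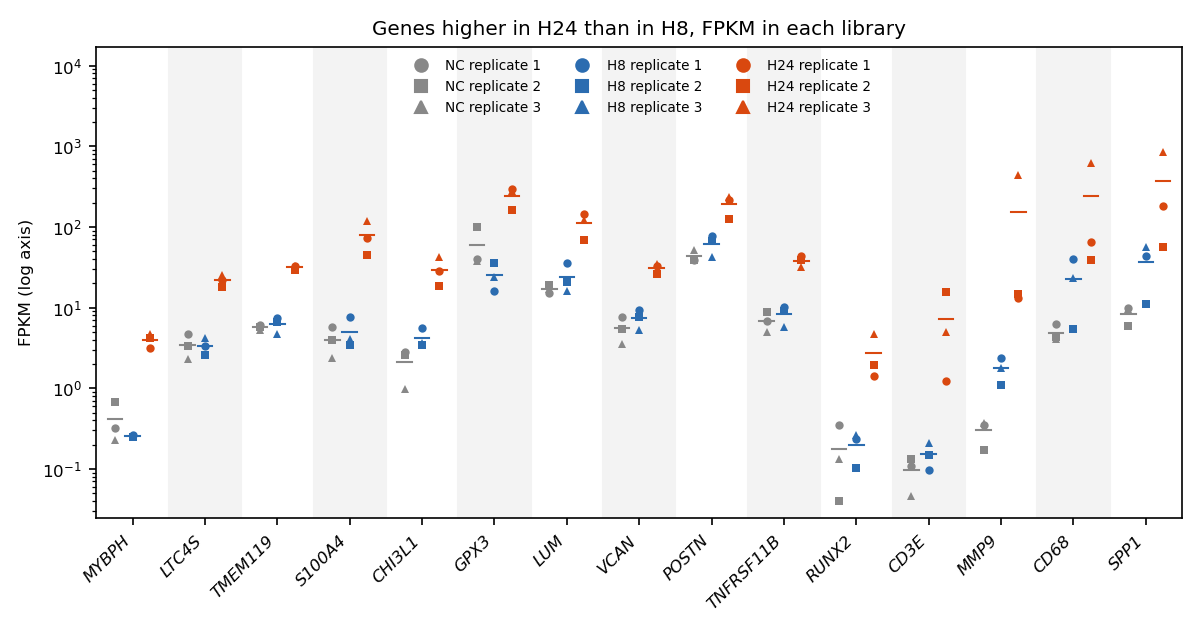
FPKM on a log axis of 15 genes that were higher in H24, with the 9 libraries as points (grey NC, blue H8, orange H24; circle, square and triangle for replicates 1 to 3) and the group mean as a short line. MYBPH, LTC4S, TMEM119, VCAN and TNFRSF11B have H24 points close together above H8, while MMP9, CD68 and SPP1 have replicate 3 far above the other H24 points.

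Macrophage genes were higher in H24, to an extent that depended on the library. Of 20 macrophage markers 19 were tested and 17 were up-regulated, with a median log2 fold change of 2.74 beside 0.04 over all tested genes. CD68, a lysosomal glycoprotein of macrophages, had 39.6, 5.40 and 23.5 FPKM in H8 and 65.3, 38.7 and 616 in H24, and 4.10 to 6.23 in NC. The groups overlapped, with H8 replicate 1 above H24 replicate 2, and H24 replicate 3 was far above all. CD14, the lipopolysaccharide co-receptor, did not overlap, with 2.78, 1.44 and 2.40 in H8 and 9.74, 5.04 and 38.5 in H24 (log2 fold change 2.82 ± 0.73, unadjusted p = 0.00612, edgeR). TYROBP, the adaptor of many myeloid receptors, had 40.2, 8.15 and 22.5 in H8 and 77.6, 53.8 and 493 in H24, and CSF1R, the receptor of the growth factor on which macrophages depend, had 17.1, 3.58 and 8.66 in H8 and 27.6, 23.3 and 119 in H24. SPI1, which encodes the myeloid transcription factor PU.1, had 14.9, 4.31 and 10.0 in H8 and 19.3, 16.6 and 164 in H24 (log2 fold change 2.59 ± 0.95). The markers together summed to 114 to 530.1 FPKM in H8, 514 to 4568 in H24 and 81.7 to 101 in NC. The median without H24 replicate 3 was 1.05 and 2 markers, CD14 and TYROBP, were called. Without H8 replicate 2 or without H8 replicate 3 the count was 1, with medians of 2.30 and 2.58. H8 itself was uneven, since replicate 2 was near NC for CD68 and TYROBP while replicates 1 and 3 were above it.

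Most lymphocyte markers that were tested were higher in H24. Of 22 T and NK cell markers 18 were tested, and 9 of these, CD3D and ZAP70 among them, had an H8 mean under 0.1 FPKM and are given as values with no support. CD3E, a chain of the T cell receptor complex, had 0.0973, 0.150 and 0.208 FPKM in H8 and 1.22, 15.8 and 4.98 in H24, with replicate 2 the highest. It overlaps CD3D, which had 0.126, 0.0872 and 0.0681 in H8 and 0.223, 0.267 and 1.19 in H24. ZAP70, the kinase that relays the T cell receptor signal, had 0.0556, 0.0661 and 0.0764 in H8 and 1.04, 0.691 and 3.48 in H24, with 0.0443 to 0.0589 in NC. IL7R, the interleukin 7 receptor of resting T cells, had 0.508, 0.0977 and 0.343 in H8 and 2.17, 0.776 and 8.17 in H24. In CD3E and IL7R all H24 libraries were above all H8 libraries, and both genes were called without H24 replicate 3 too. Among the list, 15 were called with all libraries and 5 of 15 without H24 replicate 3, and the count fell to 7, 8 or 9 when one H8 library was left out. NKG7, a granule protein of cytotoxic lymphocytes, was chosen after its values were seen. It had 20.1, 2.29 and 7.98 FPKM in H8, far above the floor, and 27.2, 19.8 and 341 in H24. NC had 0.930 to 2.40. Other cytotoxic markers of the list were low. In H24, PRF1 had 0.183, 0.331 and 1.08 and GZMA had 0.178, 0 and 0.991. KLRD1, GZMB and KLRK1 were below the filter. NKG7 ranked the 6 high-fat libraries in the same order as the macrophage marker CD68. Which cells its reads came from was not tested. Set against NC as a description, the median log2 difference of the list was 1.57 in H8 and 4.64 in H24. These medians cover different genes, since CD3D and ZAP70, among others, were too low for a value in H8 against NC. As 9 of the tested members also passed the filter through H24, the step between the medians is not read as a change. CD3E had 0.0465 to 0.133 FPKM in NC, close to H8. CD79A, a chain of the B cell receptor, had 2.42, 1.25 and 3.59 in H8, 9.67, 9.38 and 11.3 in H24 and 5.46, 4.44 and 5.40 in NC. Its H24 values were close to each other and H8 lay below NC (log2 fold change 1.91 ± 0.35). It overlaps ARHGEF1 over 19180 bases. Of 8 tested B and plasma cell markers 6 were up-regulated, 3 of the 8 having passed the filter through H24, and 2 of 6 were up-regulated without H24 replicate 3. KIT, the stem cell factor receptor of mast cells, had 0.433, 0.257 and 0.246 in H8 and 1.55, 0.974 and 2.57 in H24, and MS4A2, a chain of the IgE receptor, had 0.580, 0.145 and 0.681 in H8 and 2.48, 1.06 and 5.71 in H24. Of 8 tested dendritic and mast cell markers 5 were up-regulated, 3 of the 8 having passed the filter through H24, and 2 of 6 without H24 replicate 3. The summed level of the dendritic and mast cell markers was 1.39 to 2.83 FPKM in H8 and 5.63 to 18.7 in H24. Neutrophil markers were scarce: the list summed to 3.66 to 4.76 FPKM in H8 and to 9.38, 5.87 and 69.4 in H24 replicates 1 to 3. Of 8 tested 5 were up-regulated, but 5 of the 8 had an H8 mean under 0.1 FPKM, and without H24 replicate 3 the count was 1 of 4. S100A8, its first gene, was at 0 in all H8 libraries and had 0.271, 0 and 5.14 FPKM in H24, and CSF3R, the G-CSF receptor, had 4.32, 2.21 and 3.65 in H8 and 7.28, 4.55 and 46.8 in H24.

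**Figure D2:**
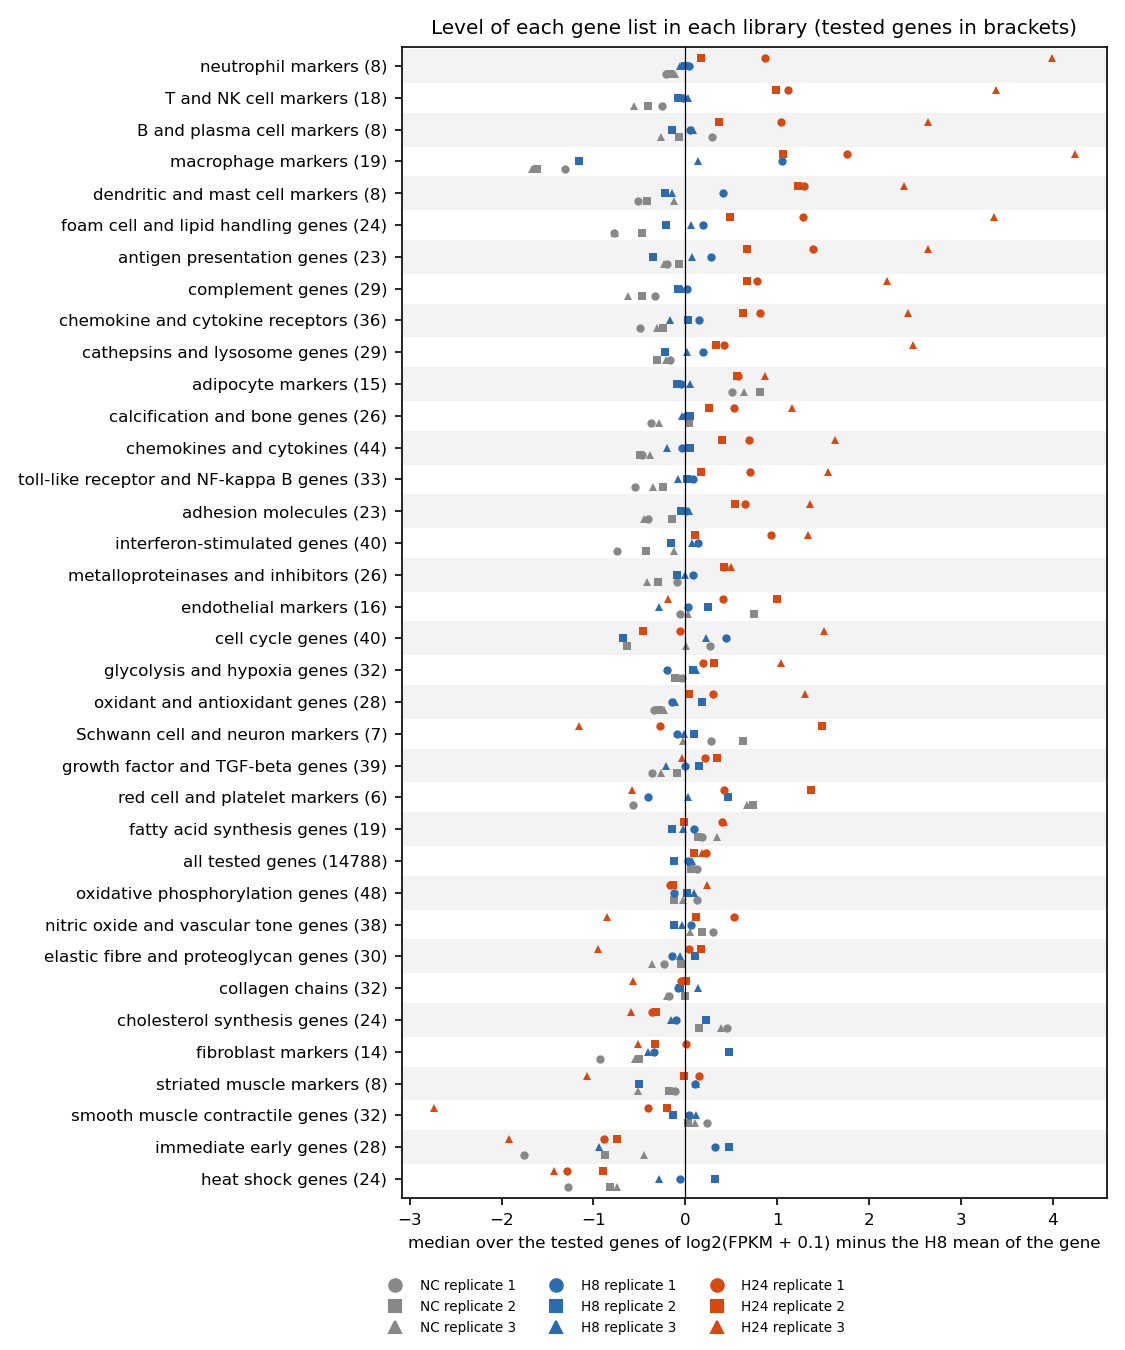
Level of 35 gene lists and of all tested genes in each library, as the median over the tested genes of log2(FPKM + 0.1) minus the H8 mean of the same gene (grey NC, blue H8, orange H24; circle, square and triangle for replicates 1 to 3; 0 is the H8 mean). Leukocyte and foam cell lists have orange points above the blue ones with replicate 3 farthest, heat shock genes have all orange points between -0.90 and -1.42, and smooth muscle contractile genes have replicate 3 at -2.74.

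Foam cell and lipid handling genes followed the macrophage markers. Of 24 tested 15 were up-regulated (median log2 fold change 2.02), 2 without H24 replicate 3 (median 0.47) and 3 without H8 replicate 2. ABCA1, which exports cholesterol to apolipoprotein A-I, had 1.52, 0.919 and 1.59 FPKM in H8 and 5.34, 4.36 and 15.5 in H24, against 0.454 to 0.527 in NC. All H24 libraries were above all H8 libraries, and all H8 libraries above all NC libraries. Its log2 fold change in H24/H8 was 2.46 ± 0.51, and 1.69 without H24 replicate 3 (unadjusted p = 0.000556, edgeR). NR1H3, the liver X receptor alpha that drives ABCA1, had 0.923, 2.48 and 0.561 in H8, 5.62, 4.33 and 37.7 in H24 and 1.47, 2.82 and 1.31 in NC, and its entry overlaps MADD over 55414 bases. SPP1, osteopontin, had 43.6, 11.2 and 56.9 in H8 and 181, 56.8 and 861 in H24, and LPL, which releases fatty acids from lipoproteins, had 9.06, 2.63 and 5.28 in H8 and 26.2, 7.13 and 131 in H24. For both genes the value of H24 replicate 2 lay within the H8 range, and the call was lost without H24 replicate 3 (unadjusted p = 0.0574 and 0.0568, edgeR). Lysosomal proteases were higher in replicate 3 above all. CTSD, cathepsin D, had 159, 45.3 and 97.2 FPKM in H8 and 286, 221 and 1876 in H24, and CTSL, cathepsin L, had 1.14, 1.36 and 0.873 in H8 and 1.94, 0.998 and 66.5 in H24. ATP6V0D2, a proton pump subunit of macrophages and osteoclasts, had 1.62, 0.353 and 1.23 in H8 and 4.72, 2.07 and 78.0 in H24. Of 29 cathepsin and lysosome genes 7 were up-regulated, 1 without H24 replicate 3 and 0 without H8 replicate 2.

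MMP9 (gelatinase B, chr17:48175056-48188264), which cuts denatured collagen and elastin, had one of the largest named rises. It had 2.39, 1.09 and 1.80 FPKM in H8 and 13.0, 14.7 and 437 in H24, and 0.174 to 0.375 in NC, an order of NC, H8 and H24 without overlap. H24 replicate 3 was far above replicates 1 and 2, which lay close to each other. The log2 fold change was 6.26 ± 1.56 (SE, unadjusted p = 0.00498), and without H24 replicate 3 it was 2.83 (unadjusted p = 5.94e-05, edgeR). MMP12, macrophage elastase, had 0.0579, 0.136 and 0.0472 in H8 and 0.253, 1.78 and 6.75 in H24, and MMP3, stromelysin 1, had 0.00901, 0.0371 and 0.0284 in H8 and 0.826, 0.0568 and 0.656 in H24. Both had an H8 mean under 0.1 FPKM, so their direction carries no support. TIMP4, an inhibitor of these enzymes, was up-regulated as well, with 0.130, 0.190 and 0.192 in H8 and 1.24, 0.584 and 2.16 in H24. In the opposite direction, ADAMTS1, a protease of proteoglycans that was chosen after its values were seen, had 240.5, 107 and 116 in H8 and 66.4, 41.3 and 12.3 in H24 (log2 fold change -2.12 ± 0.65). Of 26 metalloproteinases and inhibitors 7 were up-regulated and 3 down-regulated, and without H24 replicate 3 these were 5 and 1. TREH, which splits trehalose, CYP7A1, the first enzyme of the main bile acid pathway in liver, and PLPPR3, a phospholipid phosphatase-related membrane protein, were among the 10 largest rises of named, non-overlapping genes with a mean of at least 1 FPKM, and most of their signal lay in H24 replicate 3. TREH had 2.94, 2.17 and 80.3, CYP7A1 1.61, 1.5 and 89.1 and PLPPR3 0.124, 0.0835 and 15.4 FPKM in H24 replicates 1 to 3, and H8 had up to 0.676, 1.26 and 0.0310. Without H24 replicate 3, TREH was still called, CYP7A1 was not (unadjusted p = 0.129, edgeR), and PLPPR3, which had an H8 mean under 0.1 FPKM, was below the filter.

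Antigen presentation genes were higher in all 3 H24 libraries. All 23 tested genes had a positive log2 fold change, 18 were up-regulated and 20 did not overlap between the groups, with a median of 1.86. Leaving out H24 replicate 3, 9 of 23 were up-regulated with a median of 1.05, and without H8 replicate 2, 11 were. SLA-DRB1, a class II chain that shows peptides to helper T cells, had 29.3, 16.5 and 16.1 FPKM in H8 and 107, 58.3 and 434 in H24. SLA-DMA, which loads peptides onto class II molecules, had 17.3, 7.09 and 11.8 in H8 and 46.0, 28.8 and 174 in H24. For both, the lowest H24 library was above the highest H8 library and the NC range, 15.8 to 25.6 for SLA-DRB1 and 6.23 to 11.3 for SLA-DMA. The log2 fold changes were 3.07 ± 0.76 and 2.60 ± 0.69, and 1.82 and 1.47 without H24 replicate 3. TAP1, the peptide transporter of class I, had 12.6, 11.4 and 13.0 in H8 and 32.4, 18.9 and 43.4 in H24. Genes of the SLA class I and class II families resemble each other, and reads may have been shared among them.

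**Figure D3:**
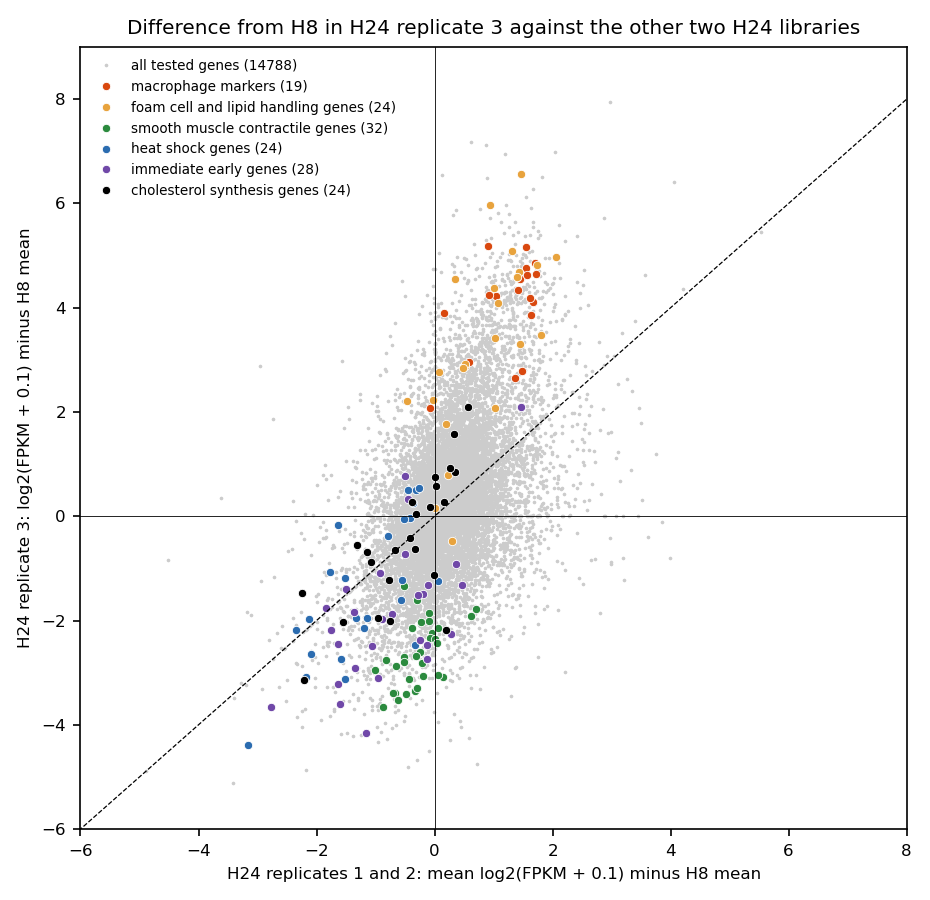
Each point is a tested gene: the x axis is the mean log2(FPKM + 0.1) of H24 replicates 1 and 2 minus the H8 mean, the y axis the same difference for H24 replicate 3, and the dashed line marks equal differences. All 19 macrophage markers (red) lie above the line and all 32 smooth muscle contractile genes (green) below it, while heat shock genes (blue) lie on both sides, 12 above and 12 below.

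Among other immune groups, 12 of 29 complement genes were up-regulated, among them MASP1, FCN1, FCN2 and MASP2, and 5 were without H24 replicate 3. FCN2 and FCN1, ficolins that start the lectin pathway and resemble each other in sequence, had 1.35, 0.310 and 18.2 and 1.03, 0.335 and 16.1 FPKM in H24, and up to 0.260 and 0.218 in H8. FCN2 had 4.14, 4.55 and 2.12 in NC, so that H24 replicates 1 and 2 lay below every NC library. It lost its call without H24 replicate 3 (unadjusted p = 0.0561, edgeR). FCN1 had up to 0.221 in NC. MASP2, a protease that binds ficolins, had 0.334, 0.274 and 0.729 in H8, 1.78, 1.3 and 1.40 in H24 and 1.60, 1.55 and 1.76 in NC, so that H24 was at the level of NC and H8 below it. Of 44 chemokines and cytokines 10 were up-regulated and 3 down-regulated, and 4 and 2 of 42 without H24 replicate 3. TNFSF10, the death ligand TRAIL, had 4.60, 3.92 and 4.27 in H8 and 32.8, 5.63 and 15.4 in H24, and IL16, a chemoattractant of CD4+ cells, had 0.684, 0.255 and 0.342 in H8 and 1.24, 1.12 and 5.91 in H24. TGFB2, a growth factor that damps inflammation and drives matrix production, was down-regulated, with 10.5, 12.6 and 7.18 in H8, 6.03, 3.45 and 3.04 in H24 and 3.95 to 4.53 in NC. Of 36 chemokine and cytokine receptors 12 were up-regulated, and without H24 replicate 3, 6 of 32 were up-regulated and 1 down-regulated. Among the 12 were IL2RB with 0.131, 0.190 and 0.248 in H8 and 0.867, 0.719 and 3.62 FPKM in H24 and CXCR6 with 0.626, 0.103 and 0.451 in H8 and 3.04, 1.09 and 5.78 in H24, both receptors of T and NK cells. Of 40 interferon-stimulated genes 11 were up-regulated, and 1 of 39 without H24 replicate 3. OAS2, an RNA-sensing antiviral enzyme, had 16.2, 11.3 and 15.9 in H8 and 63.0, 19.3 and 50.1 in H24, with replicate 2 near H8. Of 33 toll-like receptor and NF-kappa B genes 10 were up-regulated and 1 down-regulated, and 2 and 1 of 32 without H24 replicate 3. IRAK2, a kinase of toll-like receptor signalling, had 6.85, 2.47 and 3.16 in H8 and 12.4, 8.36 and 33.6 in H24, and MYD88, their shared adaptor, had 11.7, 10.6 and 11.8 in H8 and 19.9, 17.0 and 38.0 in H24, a difference under the threshold of fold change. Of 23 adhesion molecules 8 were up-regulated, and without H24 replicate 3 0 were up-regulated and 1 was down-regulated. ITGB2, the beta 2 integrin of leukocytes, had 6.40, 1.32 and 3.83 FPKM in H8 and 11.6, 7.16 and 95.8 in H24. VCAM1, the endothelial and smooth muscle ligand for monocytes, had 36.0, 75.4 and 20.2 in H8 and 134, 63.5 and 166 in H24 and was not called (log2 fold change 1.22 ± 0.58, unadjusted p = 0.0739, edgeR), and H8 replicate 2 lay above H24 replicate 2.

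Contractile genes of smooth muscle were lower in H24, mainly in replicate 3. Of 32 tested genes 31 had a negative log2 fold change, with a median of -0.90, but 2 were down-regulated, and 12 did not overlap between the groups. The level of the list, relative to the H8 mean, was -0.41, -0.20 and -2.74 on the log2 scale in H24 replicates 1 to 3. ACTA2, smooth muscle alpha-actin, had 2587, 1913 and 2847 FPKM in H8 and 2144, 2976 and 545 in H24, so replicates 1 and 2 lay within or above the H8 range and replicate 3 was far below it. It was not called (log2 fold change -0.52 ± 0.68, unadjusted p = 0.467, edgeR). MYOCD, myocardin, the co-activator that turns these genes on, was down-regulated, with 67.0, 115 and 34.9 in H8, 29.4, 34.9 and 8.32 in H24 and 19.6, 35.4 and 26.1 in NC. H8 was the high group here, and H24 replicates 1 and 2 lay at the level of NC. SYNPO2, an actin-bundling protein of the contractile apparatus, had 111, 106 and 94.6 in H8 and 76.4, 44.7 and 15.2 in H24 (log2 fold change -1.38 ± 0.56), and ACTG2, gamma smooth muscle actin, had 389, 489 and 561 in H8 and 261, 254 and 37.6 in H24 (log2 fold change -1.55 ± 0.70, unadjusted p = 0.0615). Without H24 replicate 3 the count was again 2, MYOCD and ACTG2 (log2 fold change -1.07, unadjusted p = 0.00744, edgeR), while SYNPO2 lost its call (log2 fold change -0.97). Without H8 replicate 2 none of the 32 was called by edgeR. The macrophage sum was lowest in that library among H8 and highest in H24 replicate 3, and the part of leukocyte content in these values was not tested. None of 16 endothelial markers was called by edgeR, with or without H24 replicate 3, and PECAM1 had 33.9, 25.9 and 14.1 in H8 and 56.3, 43.4 and 28.7 FPKM in H24. Of 38 nitric oxide and vascular tone genes 4 were up-regulated and 2 down-regulated, and without H24 replicate 3 these were 1 and 2. The shares are near those of all genes, and the sign of the median depended on the setting. KCNA5, a potassium channel of smooth muscle, was one of the down-regulated, with 134, 77.2 and 82.2 in H8 and 38.2, 60.7 and 12 in H24, and the other was PTGER3, a prostaglandin E2 receptor, with 19.5, 32.7 and 22.1 in H8 and 10.2, 12.4 and 2.69 in H24.

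In the matrix, ELN and HAPLN1 were down-regulated and VCAN, LUM and POSTN were up-regulated. ELN, elastin, had 1092, 1571 and 1723 FPKM in H8 and 699, 955 and 560.2 in H24, without overlap, and 923 to 1513 in NC (log2 fold change -1.16 ± 0.41, unadjusted p = 0.0253, edgeR). Of 30 elastic fibre and proteoglycan genes 2 were up-regulated and 3, ELN among them, were down-regulated, and 21 had a negative log2 fold change. The up-regulated share was near that of all genes. Without H24 replicate 3 the counts were 3 and 1, and ELN lost its call with a log2 fold change of -0.99. HAPLN1, which links hyaluronan to proteoglycans, was down-regulated too, with 3.33, 5.84 and 4.19 in H8 and 2.24, 1.84 and 1.12 in H24. Of 32 collagen chains 22 had a negative log2 fold change, and 1, COL15A1, was called, with 300.4, 219 and 306 in H8 and 179, 196 and 79.9 in H24. The down-regulated share was near the 3.05% of all tested genes. Without H24 replicate 3, COL15A1 lost its call (log2 fold change -0.71), and 1 other chain was up-regulated and 3 others were down-regulated. COL5A1, a chain of fibril-nucleating type V collagen, had 115, 135 and 162 in H8 and 87.6, 96.7 and 82.4 in H24, which did not overlap but stayed under the threshold of fold change (log2 fold change -0.80 ± 0.28). VCAN, versican, the proteoglycan that binds lipoproteins in the intima, was higher in every H24 library, from 9.32, 7.76 and 5.26 FPKM in H8 to 32.7, 26.4 and 35.2 in H24 (log2 fold change 1.88 ± 0.31). LUM, lumican, which orders collagen fibrils, had 36.0, 20.7 and 15.9 in H8 and 145, 69.6 and 123 in H24, and POSTN, periostin of healing tissue, had 77.0, 66.7 and 42.4 in H8 and 215, 124 and 235 in H24. In VCAN, LUM and POSTN the lowest H24 library was above every H8 and NC library. Of the fibroblast markers, THY1 was up-regulated with 13.1, 16.4 and 31.3 in H8 and 95.2, 32.1 and 88.0 in H24, while DCN, decorin, had 233, 499 and 227 in H8 and 341, 186 and 80.0 in H24 and was not called. Of 14 fibroblast markers 2 were up-regulated, and 2 with 1 down-regulated without H24 replicate 3. The median of the list was -0.71, which turned to 0.15 without H24 replicate 3 and H8 replicate 2, so no direction was read from it. Of 39 growth factor and TGF-beta genes 4 were up-regulated and 6 down-regulated, and 4 and 3 without H24 replicate 3. CCN2, connective tissue growth factor, was down-regulated, with 642, 884 and 620 in H8, 331, 233 and 94.1 in H24 and 152 to 204 in NC, and BAMBI, a decoy receptor of TGF-beta signals, had 6.87, 8.10 and 6.54 in H8 and 3.83, 4.59 and 2.92 in H24 and lost its call without H24 replicate 3.

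Among bone and calcification genes the rise of TNFRSF11B was even across the H24 libraries, while RUNX2, TNFRSF1B and DCSTAMP were highest in replicate 3. Of 26 tested 11 were up-regulated and 2 down-regulated, and without H24 replicate 3 these were 6 and 2 of 24. TNFRSF11B, osteoprotegerin, the decoy receptor that blocks osteoclast formation, had 10.2, 9.07 and 5.74 FPKM in H8 and 43.1, 38.7 and 32.2 in H24, with 4.95 to 8.76 in NC. RUNX2, the master transcription factor of bone-forming cells, had 0.238, 0.102 and 0.262 in H8 and 1.41, 1.97 and 4.73 in H24. Both did not overlap between the groups, and the log2 fold changes were 2.0 ± 0.31 and 3.57 ± 0.65 (unadjusted p = 0.000352 and 0.000855, edgeR). TNFRSF1B, a receptor of TNF, had 29.3, 30.1 and 20.1 in H8 and 63.4, 62.4 and 150.4 in H24. DCSTAMP, which fuses osteoclasts and giant cells, had 0.122, 0.0836 and 0.149 in H8 and 0.657, 0.228 and 13.5 in H24, and replicate 3 held nearly all of it. BMP2, a bone growth factor chosen after its values were seen, was down-regulated with 2.78, 7.56 and 2.01 in H8 and 1.29, 1.65 and 0.782 in H24.

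Heat shock genes were lower in all 3 H24 libraries. All 24 tested members had a negative log2 fold change, 13 were down-regulated and 14 did not overlap between the groups, with a median of -1.56. The counts were 12 of 24 without H24 replicate 3 (median -1.42), 12 without H8 replicate 2, and 11 to 15 over all ways of leaving out 1 library. HSP70.2, a stress-inducible HSP70 chaperone with near-identical copies whose reads cannot be fully separated (chr7:23915072-23929754), had 380.1, 803 and 927 FPKM in H8 and 45.5, 117 and 31.4 in H24. NC had 40.7, 33.2 and 62.2, so that H8 was the high group and H24 lay near NC. The log2 fold change was -3.60 ± 0.68 (SE, unadjusted p = 0.00111, adjusted p = 0.336, edgeR). DNAJB4, a co-chaperone of HSP70, had 89.0, 80.0 and 62.8 in H8, 23.2, 13.6 and 12.2 in H24 and 24.6 to 31.8 in NC, and its log2 fold change of -2.44 ± 0.33 had the lowest p-value of the list (unadjusted p = 0.000153, adjusted p = 0.215, edgeR). HSPH1, which recharges HSP70 with nucleotide, had 69.6, 151 and 26.4 in H8 and 11, 14.8 and 14.3 in H24, and DNAJA1 had 69.8, 157 and 50.2 in H8 and 17.0, 20.6 and 20.7 in H24. DNAJA4 had 12, 10.8 and 7.28 in H8 and 3.14, 3.22 and 1.39 in H24. In each of the 5 genes every H24 library was below every H8 library. HSPD1, a mitochondrial chaperone chosen after its values were seen, was not called and had 15.9, 15.7 and 13.0 in H8 and 14.7, 9.61 and 21.0 in H24.

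Immediate early genes, which cells switch on within minutes of a stimulus, were lower in H24 than in H8 replicates 1 and 2. The level of the list relative to the H8 mean was 0.32, 0.48 and -0.94 on the log2 scale in H8 replicates 1 to 3 and -0.88, -0.75 and -1.92 in H24, so that H8 replicate 3 lay below H24 replicates 1 and 2. Of 28 tested 13 were down-regulated and 1, EGR2, was up-regulated, with a median of -1.38, and 8 were lower without overlap between the groups. The down-regulated were 10 without H24 replicate 3, 7 without H8 replicate 2 and 20 without H8 replicate 3. ATF3, a stress transcription factor, had 866, 567 and 205 FPKM in H8 and 67.8, 67.9 and 37.0 in H24, with 72.4, 20.2 and 105 in NC replicates 1 to 3. JUN had 1356, 578 and 879 in H8 and 349.6, 280.5 and 337 in H24, and JUND had 538, 392 and 236 in H8 and 108, 129 and 67.4 in H24, both subunits of AP-1. The H24 values of ATF3, JUN and JUND lay below all H8 values, with log2 fold changes of -3.44 ± 0.61, -1.71 ± 0.37 and -2.12 ± 0.43. IER3, a survival factor induced by stress, had 26.1, 36.2 and 22.3 in H8 and 5.73, 11.4 and 6.0 in H24. EGR2, chosen after its values were seen, went the other way, with 4.56, 4.30 and 2.52 in H8 and 11.14, 9.65 and 16.0 in H24 (log2 fold change 1.49 ± 0.34). Other genes of the same direction were TRIB1, a pseudokinase, with 62.7, 77.6 and 9.84 in H8 and 4.62, 6.25 and 5.35 in H24, and OTUD1, a deubiquitinase, with 35.0, 31.7 and 14.3 in H8 and 4.25, 2.46 and 2.44 in H24. OTUD1 had a log2 fold change of -3.35 ± 0.46 (adjusted p = 0.215, edgeR). GJA1, connexin 43 of gap junctions, had 192, 254 and 67.4 in H8 and 31.5, 17.1 and 31.3 in H24, with 26.4 to 42.8 in NC. CCND2, a cyclin that takes cells into the cell cycle, had 40.3, 26.3 and 23.2 in H8 and 2.35, 4.16 and 8.06 in H24. In GJA1 and TRIB1, H8 replicate 3 was the lowest of H8, as it was in ATF3 and JUND. Set against NC, the median log2 difference of the heat shock list was 1.24 in H8 and -0.15 in H24, and that of the immediate early list was 1.12 and -0.22. These comparisons with NC share its 3 libraries and are given as a description.

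**Figure D4:**
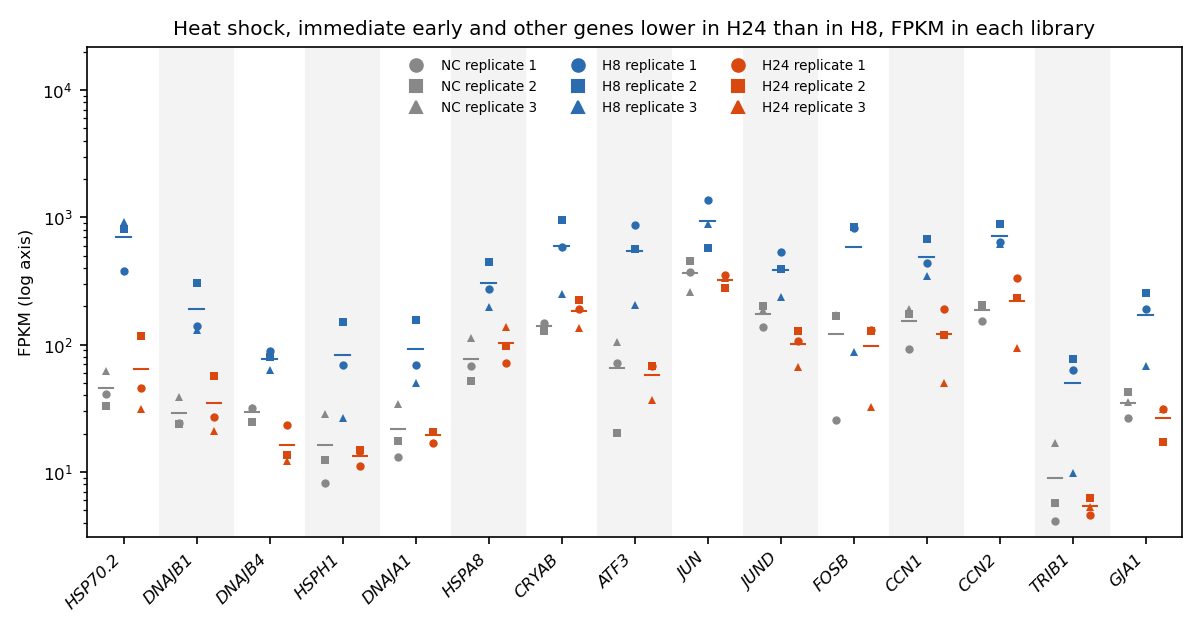
FPKM on a log axis of 15 heat shock, immediate early and other genes in the 9 libraries (grey NC, blue H8, orange H24; circle, square and triangle for replicates 1 to 3; short line, group mean). H8 is the highest group for each gene by its mean, and for HSP70.2 the H8 points lie at 380.1 to 927 while H24 lies at 31.4 to 117.

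Cholesterol synthesis genes were lower in H24. Of 24 tested genes 18 had a negative log2 fold change, 8 were down-regulated and 0 up-regulated, with a median of -0.55. Without H24 replicate 3, 7 were down-regulated (median -0.58), and without H8 replicate 2 the count was 3 of 23. SQLE, which oxidizes squalene at a rate-setting step (chr4:14667848-14700221), had 2.56, 4.15 and 2.26 FPKM in H8, 0.845, 0.340 and 0.24 in H24 and 4.18, 3.56 and 3.18 in NC. CYP51A1, which removes a methyl group from lanosterol, had 4.70, 7.66 and 3.23 in H8 and 1.63, 1.58 and 1.12 in H24. In both genes all H24 libraries were below all H8 and NC libraries, with log2 fold changes of -2.86 ± 0.57 and -2.06 ± 0.42 (unadjusted p = 0.00150 and 0.00165, edgeR). STARD4, a carrier of cholesterol, counted among the 8, with 0.0976, 0.294 and 0.124 in H8 and 0.0209, 0.0249 and 0.0412 in H24, which is near the detection limit. Its H24 mean was under 0.1 FPKM and it passed the filter through H8, so its direction carries no support. DHCR7, SC5D, IDI1 and INSIG1 were chosen after their values were seen. DHCR7, SC5D and IDI1 were also down-regulated, with log2 fold changes of -1.45, -1.29 and -1.29. INSIG1, which holds SREBP2 back in the endoplasmic reticulum, had 20.4, 5.64 and 6.34 in H8 and 18.8, 9.52 and 38.8 in H24 and was not called. Of 19 fatty acid synthesis genes 2 were up-regulated and 1 down-regulated, and 1 and 1 without H24 replicate 3. For so few genes these shares are not far from the 7.22% and 3.05% of all tested genes. FADS1, the delta-5 desaturase, was the down-regulated one, with 7.29, 6.28 and 7.65 in H8, 2.0, 5.22 and 1.73 in H24 and 21.6, 8.94 and 18.9 in NC. SCD, stearoyl-CoA desaturase, had 23.9, 7.20 and 13.9 in H8 and 36.2, 13.4 and 185 in H24, and its call rested on H24 replicate 3.

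**Figure D5:**
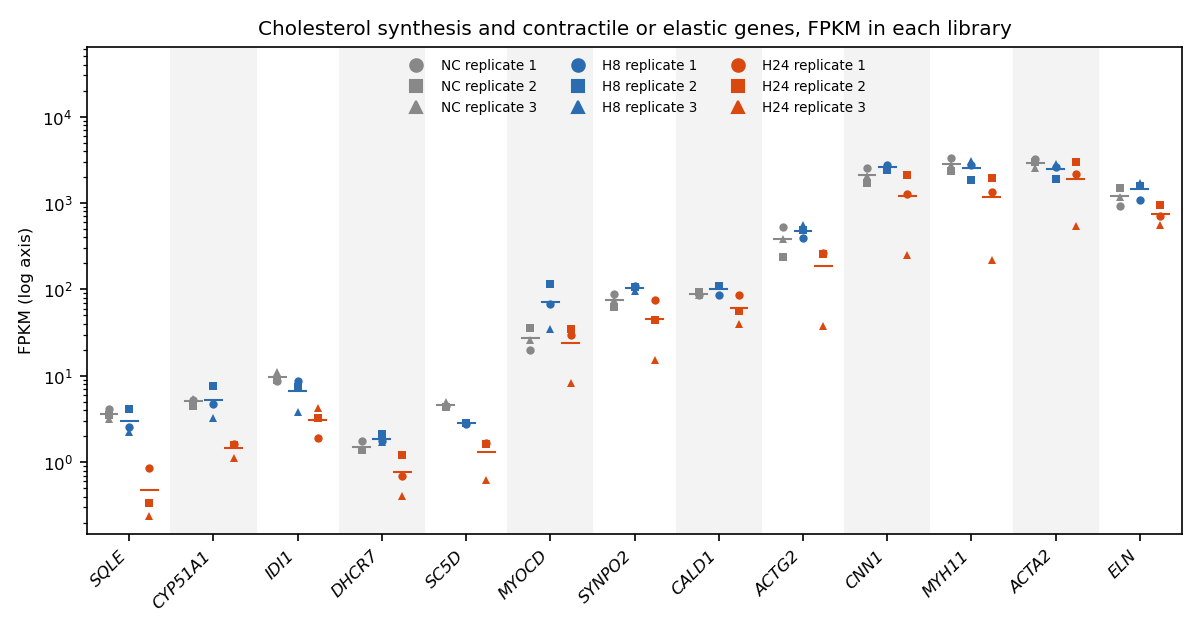
FPKM on a log axis of 5 cholesterol synthesis genes and 8 contractile, co-activator or elastic genes in the 9 libraries (grey NC, blue H8, orange H24; circle, square and triangle for replicates 1 to 3; short line, group mean). SQLE and CYP51A1 have all 3 orange points below the blue points, while in CNN1, MYH11 and ACTA2 the triangle of H24 replicate 3 lies far below replicates 1 and 2.

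Energy and redox genes were mixed. None of 48 oxidative phosphorylation genes was called by edgeR at the unadjusted threshold, in the fits with all libraries and without each in turn, and their median of -0.18 turned to 0.01 when counts were scaled by library size only. Of 32 glycolysis and hypoxia genes 4 were up-regulated and 2 down-regulated, and 3 and 1 without H24 replicate 3. SLC16A3, a lactate exporter, had 0.477, 0.921 and 1.27 FPKM in H8 and 2.74, 4.87 and 17.7 in H24, and BNIP3, a hypoxia-induced mitophagy receptor, had 36.9, 33.6 and 43.1 in H8 and 72.9, 128 and 82.2 in H24. PDK1, which blocks entry of pyruvate into mitochondria, was down-regulated with 29.5, 33.2 and 19.0 in H8 and 16.5, 9.59 and 11.8 in H24. Among 28 oxidant and antioxidant genes 9 were up-regulated and 2 down-regulated, and without H24 replicate 3 these were 4 and 2 of 27, with the median turning from 0.37 to -0.03. The up-regulated included NCF4 and NCF1, subunits of the phagocyte NADPH oxidase, with 6.41, 5.68 and 40.2 and 3.74, 3.47 and 29.8 FPKM in H24 against 2.60, 1.58 and 1.75 and 1.98, 1.03 and 1.17 in H8. PRDX2, a peroxiredoxin, was down-regulated with 119, 199.6 and 53.6 in H8, 16.5, 19.4 and 18.7 in H24 and 20.0, 143 and 192 in NC. The PRDX2 values are uncertain, since it overlaps HOOK2 and its entry runs into the position that RefSeq gives for JUNB, an immediate early gene listed at 0 in every library. Of 40 cell cycle genes 2, PLK1 and DLGAP5, were up-regulated, a share below the 7.22% of all tested genes. Without H24 replicate 3 this was 0 of 38, and the median turned from 0.41 to -0.56. GAPDH, often used as a reference, had 142, 191 and 165 in H8 and 216, 329.6 and 330.2 FPKM in H24 and was not called, though the groups did not overlap.

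Adipocyte transcripts varied between libraries. ADIPOQ, adiponectin, had 0.0954, 0.106 and 0.0789 FPKM in H8, 7.24, 0.0705 and 0.416 in H24 and 4.44, 14.6 and 6.83 in NC, so that H24 replicate 1 and NC held it and the rest nearly lacked it. PLIN1, which coats lipid droplets, had 0.0289, 0.0823 and 0 in H8, 5.58, 0.134 and 0.213 in H24 and 3.59, 16.5 and 5.91 in NC. LEP, leptin, and CIDEC, which enlarges lipid droplets, were more even, with 0.831, 0.351 and 0.990 and 4.18, 2.31 and 8.14 FPKM in H24 against 0.0628, 0.0633 and 0.0825 and 0.994, 0.784 and 0.464 in H8. Of 15 tested adipocyte markers 6 were up-regulated and 1, PCK1, was down-regulated, and 5 and 1 without H24 replicate 3. ADIPOQ, PLIN1 and LEP, all among the 6, had an H8 mean under 0.1 FPKM and passed the filter through H24. PCK1 had an H24 mean under 0.1 FPKM and passed it through H8, so its direction carries no support either. The sums of the list were 170.2 to 277 FPKM in H8, 249 to 369 in H24 and 229 to 380.1 in NC, and the part of fat tissue in the calls of lipid genes was not tested. Of 24 skeletal muscle markers 16 were below the filter or had no entry, and ACTA1 had at most 0.130 FPKM in the 6 libraries. TNNC1, the troponin C of slow and cardiac muscle, had 201, 342 and 392 in H8 and 157, 186 and 15.3 in H24 and was not called, and MYBPC2 was the called one of 8 tested (1 up-regulated and 1 down-regulated without H24 replicate 3), with 0.482, 0.294 and 0.658 in H8 and 2.94, 2.01 and 3.33 in H24. Of 7 tested nerve markers 1, GFRA3, a receptor of sensory neurons, was called, also without H24 replicate 3, with 3.95, 3.03 and 2.64 in H8 and 10.7, 9.97 and 6.79 in H24. HBB, beta globin of red cells, had 44.9, 202 and 47.4 in H8 and 83.7, 249 and 19.3 in H24 and was not called. Of 6 tested red cell and platelet markers 1, GP1BB, was called, with and without H24 replicate 3. GP1BB was at 0 in every H8 library and passed the filter through H24, so its direction and its calls carry no support. It also overlaps SEPT5 over 654 bases on the same strand.

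Other large falls were in genes of no list. SLC51B, a subunit of the bile acid and steroid transporter, had 4.33, 4.59 and 0.550 FPKM in H8 and 0.464, 0.351 and 0.0782 in H24, with H8 replicate 3 close to H24. ACTN2, the alpha-actinin of Z discs, had 17.7, 16.4 and 3.98 in H8 and 2.37, 1.70 and 0.637 in H24, and INSC, which orients cell division, had 8.99, 6.37 and 6.76 in H8 and 1.63, 1.43 and 0.153 in H24. The groups did not overlap in these 3 genes, and the log2 fold changes were -3.61 ± 0.98, -3.22 ± 0.72 and -2.95 ± 0.79. Set beside NC as a description, the H24 mean was above every NC library in 982 of the 1068 up-regulated genes. Of the 451 down-regulated genes, the H8 mean was above every NC library in 296, and the H24 mean lay within the NC range in 167 and below it in 263. These counts are of group means, which can rest on a single library, and were not taken over all tested genes. In FCN2, for example, the H24 mean was above every NC library while H24 replicates 1 and 2 were below them all.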

How the data were processed

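Poly(A) RNA of the abdominal aorta was sequenced as paired ends on an Illumina HiSeq instrument. The authors deposited a table of 21357 genes with an estimated count and an FPKM value for each of the 9 libraries, whose genes carry Sscrofa 11.1 identifiers. HISAT2 2.0, StringTie 1.3.0 and Bowtie 0.12.2 are named in the submitters' processing notes, and a build field of the labels names a mouse build. Strand use in counting is not given in the sources used here, so overlapping and antisense genes are uncertain. The deposited FPKM values were used for levels and for the filter, a mean of at least 0.1 over the 6 libraries. The deposited estimated counts were whole numbers as deposited and were tested without rounding. How they were derived is not given in the sources used here.

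Of 6511 genes that the table gave no name, 1407 were named through an NCBI accession and 228 through a gene identifier from RefSeq tables, and 4876 stayed unnamed. For 6 names given to more than 1 gene the row with the highest mean FPKM was used. Groups came from the labels, and the fit compared 3 H24 with 3 H8 libraries by edgeR 4.0.16 (R 4.3.3, quasi-likelihood test, TMM scaling, Benjamini-Hochberg adjustment). Calls needed p under 0.05 and a log2 fold change above 1 or below -1. Total counts were 44094263 to 75787978 over the 9 libraries, and 3 counts, taken as the floor, came to 0.0396 to 0.0680 CPM. This floor covers counting error only. Levels of lists used log2(FPKM + 0.1). Each group holds 3 pigs, and a p-value sets the difference between the groups against the spread between these samples. In edgeR the spread of a gene is estimated with the help of the other genes, not from its own values alone. An exact permutation test of 3 against 3 cannot go below 0.1 and was not used. Alternatives used DESeq2 1.42.0, limma 3.58.1 and edgeR, and the scripts were tested on simulated data. Tables were handled with data.table, version 1.17.8, Python 3.11.15 and pandas 2.3.3.

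The comparison and the 35 gene lists were chosen with earlier results of these data known. The genes named were the 10 largest log2 fold changes in each direction among named, called genes with non-overlapping FPKM and a mean of at least 1, with all libraries and again without H24 replicate 3, up to 4 genes of lowest p in each list with a called member, the genes past the adjusted threshold, and CD68, ACTA2, VCAM1, MMP9, SPI1, GAPDH and the first gene of each marker list. Genes outside this rule are marked where they first appear or stand as an overlapping neighbour. Further genes in the plots were chosen after their values were seen. Replicate numbers are shared between groups in the labels, but same-numbered libraries did not deviate together (r = -0.0243, 0.0827 and -0.0405), so no block was used. Promoter sequences were not used here. Some genes are not reported here.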

Additional observations from a re-analysis of the deposited data

How the results depend on the processing

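The counts of genes past the unadjusted threshold, 1068 higher and 451 lower, stayed within 1.5 times under median-ratio size factors, other filters, DESeq2, the exact test, robust shrinkage, a fit of all 9 libraries and voom with library weights, the last chosen after seeing the data. They moved to 517 higher and 177 lower with limma on log2(FPKM + 1). With library size only, 290 were lower and 83.3% of calls were higher, against 70.3% with TMM, and the median over all genes moved from 0.04 to 0.24. Limma on log2 FPKM moved that median to 0.12 to 0.19. Leaving out 1 library gave 547 to 1407 higher and 248 to 684 lower genes. The libraries that moved a count by over 1.5 times were H24 replicate 3 (547 higher), H8 replicate 2 (556 higher, 248 lower), H8 replicate 3 (617 higher) and H24 replicate 2 (684 lower), and the higher share was 60.0% without H24 replicate 3 and 58.5% without H8 replicate 3. With H24 replicate 3 and H8 replicate 2 both left out, chosen after seeing the data, 533 were higher and 290 lower, of which 2 and 2 passed the adjusted threshold.

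Calls after adjustment depended on the tool. DESeq2 gave 447 higher and 203 lower, the edgeR exact test 177 and 91, limma with each pseudocount 1 higher, and the fit of all 9 libraries 1 higher. Leaving out 1 library gave 0 to 3 higher and 0 to 1 lower. With the replicate block, 800 were higher and 475 lower, and 0 passed the adjusted threshold, though 1589 had an unadjusted p under 0.05. Since the replicate numbers pair nothing that could be seen in the deviations, and not every library correlated best with its own number, this says little about the effect.

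No named gene turned its direction in any alternative run. When H24 replicate 3 was left out, 118 kept their side of the threshold, 32 lost the call and 2 gained it, and without H8 replicate 2, 39 lost it. List medians that changed sign in at least 1 alternative were those of fibroblast, striated muscle, nerve, red cell, cell cycle, oxidative phosphorylation, oxidant, vascular tone and growth factor genes. Depth limited genes near the floor, such as STARD4 and the lymphocyte markers in H8. The causes of these shifts were not tested.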
